A study of Mus musculus with 54 samples.

Results

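The voltage-gated potassium channel genes of the laser-captured mouse suprachiasmatic nucleus (SCN) were followed over 6 timepoints of a light/dark cycle. They are the genes whose symbols begin with Kcna, Kcnb, Kcnc, Kcnd, Kcnf, Kcng, Kcnh, Kcnq, Kcns, Kcnv, Kcnab, Kcne or Kcnip followed by a number, with at least 1 read in more than 6 of 18 replicates. Of 51 such symbols in the count table, 48 met this minimum, and *Kcna7*, *Kcna10* and *Kcne1* did not. All 48 were among the 18941 genes tested, out of 30031 in the table. The tissue came from male C3H/HeH mice of 10 to 12 weeks kept at 150 lux in a cycle of 12 hr of light and 12 hr of darkness, with no other treatment or genotype. Brains were taken at ZT2, ZT6 and ZT10 (hours after lights on) and, in darkness, at ZT14, ZT18 and ZT22. Each timepoint had 3 biological replicates, A, B and C, and each replicate was the pooled SCN of 5 mice, sequenced in 3 lanes. As all mice were in this cycle, an effect of light and one of the internal clock cannot be told apart. In such bulk tissue, fewer cells of a type and less RNA per cell cannot be told apart either.

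Voltage-gated potassium (Kv) channels open when a neuron depolarises and let potassium leave the cell, which repolarises the membrane and limits how fast the next action potential can follow. The pore is built of alpha subunits, of the Shaker (Kcna), Shab (Kcnb), Shaw (Kcnc), Shal (Kcnd), KCNQ (Kcnq) or EAG/ERG/ELK (Kcnh) type, and alpha subunits that are silent on their own (Kcnf, Kcng, Kcns, Kcnv) modify Shab channels. Auxiliary subunits of the Kcnab, Kcnip and Kcne families change gating and traffic. SCN neurons fire faster by day than by night, and fast delayed rectifier currents (Shaw type) and A-type currents (Shal and Shaker type) are among the potassium currents described in them.

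Library totals ranged from 15412981 to 35820945 counts. The study's principal component plot is said to separate libraries by timepoint and by sequencing batch, and it puts them in 3 clusters (ZT22 with ZT2, ZT6 with ZT10, ZT14 with ZT18). A difference between clusters can therefore be one of timepoint or of batch, and these cannot be told apart. Of 10 markers of SCN neurons, all were detected, and *Vip* averaged between 963 and 2756 CPM (read counts scaled to the library total, which the TMM method adjusts) at each timepoint. Markers of telencephalic excitatory neurons and of striatal neurons, which lie outside the SCN, were unevenly spread over the libraries, and their levels are given beside the results they move with.

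Promoters were available in the RefSeq-derived table (build GRCm38.p6, 250 bases before to 50 bases after each annotated start) for 33 of the 48 genes, with 49 windows. The clock's E-box (CACGTG, the same on both strands) was in 4 of these 49 windows, in *Kcnab1*, *Kcne4* and *Kcnh4*, against 7.15% of all 32851 windows. The D-box (TTATGTAA, either strand) and the cAMP response element (TGACGTCA, the same on both strands) were in 0 of the 49, against 0.938% and 1.79% of all windows. The windows of *Kcnab1* and *Kcne4* are shown because both genes passed the time test below and were among those with the widest range of levels. Capitals mark the E-box, and no match overlapped another.
Kcnab1, chr3:65108764-65109063, plus strand: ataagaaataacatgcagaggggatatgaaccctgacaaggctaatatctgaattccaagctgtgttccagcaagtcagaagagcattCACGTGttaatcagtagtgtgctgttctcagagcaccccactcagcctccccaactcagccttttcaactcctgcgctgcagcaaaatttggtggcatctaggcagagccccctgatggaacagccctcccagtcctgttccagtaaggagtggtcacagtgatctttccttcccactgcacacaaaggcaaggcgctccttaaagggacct
Kcnab1, chr3:65187853-65188152, plus strand: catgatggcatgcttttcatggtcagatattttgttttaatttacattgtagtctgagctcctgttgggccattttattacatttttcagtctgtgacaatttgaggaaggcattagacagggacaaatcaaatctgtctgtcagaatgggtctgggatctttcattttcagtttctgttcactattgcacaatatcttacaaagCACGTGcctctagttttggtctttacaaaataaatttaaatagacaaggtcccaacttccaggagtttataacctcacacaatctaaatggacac
Kcne4, chr1:78816661-78816960, plus strand: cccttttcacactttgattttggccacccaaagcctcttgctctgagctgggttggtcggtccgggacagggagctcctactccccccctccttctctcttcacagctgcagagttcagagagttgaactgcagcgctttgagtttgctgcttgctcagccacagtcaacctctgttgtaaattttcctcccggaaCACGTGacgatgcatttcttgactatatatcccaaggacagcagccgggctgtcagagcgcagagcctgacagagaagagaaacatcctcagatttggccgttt
The E-box begins 162 and 45 bases before the annotated start in the *Kcnab1* windows and 54 bases before it in *Kcne4*. These are the RefSeq-derived starts of the windows, and the first *Kcnab1* window shown ends before the GENCODE start of the gene (65109384). The other *Kcnab1* window, chr3:64948962-64949261, held none. A match of letters is a description and says nothing of binding.

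Levels can be compared between genes only per length, here as CPM per kb of exon (the union of annotated exons), which understates a gene whose longest annotated ends are little used. By this measure the auxiliary subunits of A-type channels and their Shal partner led the family. *Kcnip3*, a calcium-binding subunit of Shal channels also known as the repressor DREAM, averaged 21.6 CPM per kb (11.2 to 27.4) over the timepoint means. *Kcnd2*, the Shal pore subunit Kv4.2, averaged 16.2 CPM per kb (13.2 to 19.7), *Kcnip4* 14.7 CPM per kb (10.3 to 18.3), *Kcnab2*, a cytoplasmic beta subunit of Shaker channels, 14 CPM per kb (5.16 to 36.2), and *Kcnip2* 13.2 CPM per kb (9.99 to 17.8). The ranges of these 5 genes overlapped. At the low end *Kcnv2*, *Kcng3* and *Kcnq1* were at 0.0747, 0.0909 and 0.161 CPM per kb. The family therefore spanned more than 2 orders of magnitude, and several of the low genes had replicates with no read.

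**Figure D1:**
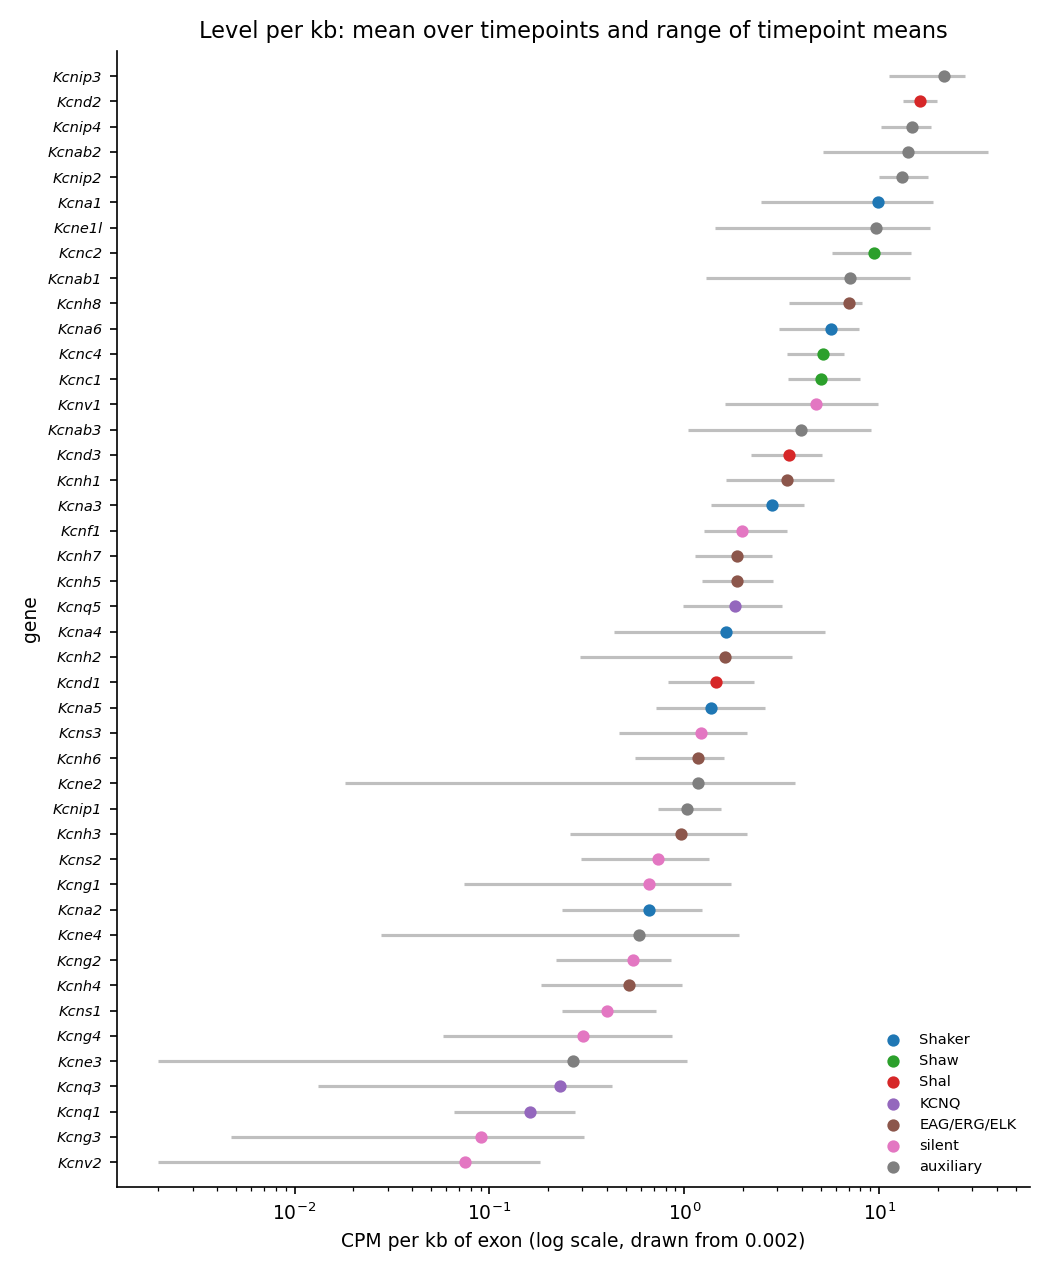
Mean CPM per kb of exon of 44 of the 48 channel genes over the 6 timepoint means (points, coloured by role, log axis), with the lowest to highest timepoint mean as a grey line that is cut at 0.002. *Kcnip3* leads at 21.6 and *Kcnv2* is last at 0.0747, and *Kcnd2* has one of the shortest lines near the top.

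Of the 48 genes, 25 changed with time (edgeR quasi-likelihood F-test over the 6 timepoints, q under 0.05), which is 52.1% against 44.0% of all genes tested. They were 4 of 6 Shaker, 1 of 3 Shal, 7 of 10 Shab, Shaw and KCNQ, 3 of 8 EAG/ERG/ELK, 3 of 10 silent and 7 of 11 auxiliary genes. Only 9 of the 48 were also rhythmic by JTK_CYCLE, an exact rank test for a cosine-shaped 24 hr rhythm, so that 18.8% were called cycling against 29.9% of all genes. Among these were *Kcna2*, *Kcna6*, *Kcnc2*, *Kcne1l*, *Kcnh2*, *Kcnh3*, *Kcnip2* and *Kcnip3*. The cycling count rose to 15 without ZT18 replicate C. The time of the extremes was uneven, with 11 of the 25 highest at ZT14 (18.97% of all genes that changed) and 18 of the 25 lowest at ZT6 or ZT10 (38.8% of all genes that changed). The variance of the timepoint means that lay between the library clusters had a median of 81.8% over the 25 genes, against 90.3% over all 8343 genes that changed.

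**Figure D2:**
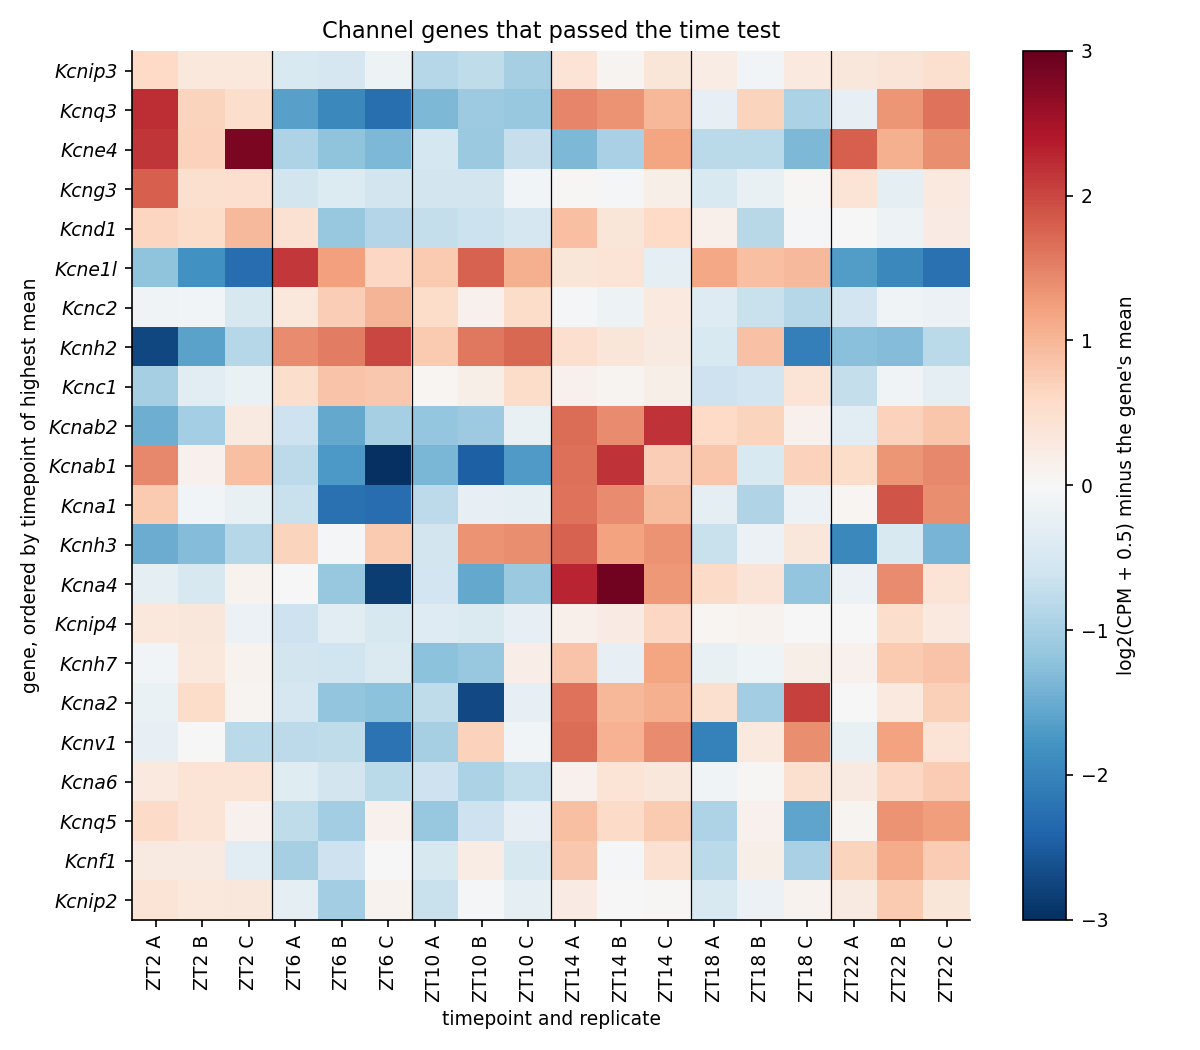
Log2(CPM + 0.5) minus the gene's mean over 18 replicates (colour, limited to 3 either way) for 22 of the 25 channel genes that passed the time test, ordered by the timepoint of their highest mean, with one column per replicate. The largest block, 9 genes, is highest at ZT14, and 17 of the 22 genes have their lowest mean at ZT6 or ZT10.

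The 4 of 6 Shaker genes and 2 of 3 beta subunits that changed with time had their highest mean at ZT14 or ZT22 and their lowest at ZT6 or ZT10. Among the 10 channel genes that averaged over 40 CPM, the ratio of the highest to the lowest timepoint mean was largest for *Kcnab1* (11.1), *Kcna1* (7.63) and *Kcnab2* (7.02), and smaller for the other 7. In the value sentences that follow, the 3 CPM values at each timepoint are those of replicates A, B and C in that order. *Kcna1* (chr6:126640397-126646384, like all gene positions here from GENCODE M21 on GRCm38) encodes Kv1.1, a low-threshold channel of axons. *Kcna1* had 60.1, 33 and 29.9 for ZT2, 21.7, 7.01 and 6.77 for ZT6, 19.9, 29.3 and 28.6 for ZT10, 109, 94.6 and 68 for ZT14, 28.9, 18.5 and 30.8 for ZT18 and 36.1, 129.5 and 92.6 for ZT22. All ZT14 replicates lay above all ZT18 replicates, while at ZT22 replicate A stood near the ZT2 replicates and B and C far above them. Its means ranged from 11.8 ± 8.57 CPM at ZT6 to 90.3 ± 20.6 at ZT14 (SD, n = 3), with a time-test q of 3.17e-04. *Kcna4*, an A-type Shaker subunit (Kv1.4), had 3.85, 3.31 and 5.24 for ZT2, 4.81, 1.89 and 0.237 for ZT6, 3.06, 1.35 and 1.93 for ZT10, 25.2, 38.9 and 12.6 for ZT14, 7.39, 6.42 and 1.83 for ZT18 and 4.17, 13.6 and 6.52 for ZT22. It stood out at ZT14, where its lowest replicate was above all but 1 replicate of the other timepoints (q = 0.00256, and 0.166 without ZT14 replicates A and B, with 1.20e-06 to 0.166 over all alternatives). *Kcna6* (Kv1.6) had 38.68, 41.7 and 42 for ZT2, 24.3, 21.2 and 17.7 for ZT6, 20.2, 16.1 and 18.5 for ZT10, 34.7, 41.8 and 40.2 for ZT14, 29.2, 32.3 and 44.4 for ZT18 and 38.3, 48.4 and 53.9 for ZT22. Its 6 replicates of ZT6 and ZT10 all lay below the other 12, and it was rhythmic (time q = 1.54e-04, exact JTK_CYCLE p = 0.00328). *Kcna2* also passed at the lower level of 14.7 ± 3.86 CPM at ZT14 and 2.81 ± 1.02 at ZT6 (SD, n = 3, q = 0.0376), but kept its call in 9 of 18 fits that left out 1 replicate. *Kcna3* and *Kcna5* did not pass (q = 0.371 and 0.167).

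The cytoplasmic beta subunits *Kcnab1* and *Kcnab2*, which bind Shaker channels and can speed their inactivation, were also highest at ZT14 and lowest at ZT6 and ZT10. *Kcnab1* (chr3:65109384-65378223) had 108, 43.2 and 73.5 for ZT2, 22.6, 11.6 and 3.22 for ZT6, 14.9, 6.81 and 11.7 for ZT10, 124, 179 and 65.6 for ZT14, 70.3, 28.3 and 63.7 for ZT18 and 57.3, 99.2 and 106 for ZT22. All 6 replicates of ZT6 and ZT10 were below the other 12, and the mean fell from 74.8 ± 32.2 CPM at ZT2 to 11.1 ± 4.07 at ZT10, with 123 ± 56.8 at ZT14 (SD, n = 3, q = 2.48e-04). *Kcnab2* (chr4:152390742-152477871) had 20.6, 28.5 and 69.9 for ZT2, 37.9, 19.7 and 28.8 for ZT6, 25.8, 27.2 and 49.6 for ZT10, 188, 155 and 263 for ZT14, 87.7, 92.8 and 63.2 for ZT18 and 46.1, 94.8 and 104 for ZT22. Its ZT14 replicates lay above the 15 others, and its means at ZT18 and ZT22 (81.2 ± 15.8 and 81.5 ± 31 CPM) were within their SDs of each other (q = 9.27e-05). *Kcnab3* averaged 26.1 ± 16.6 CPM at ZT14, its highest timepoint, and 2.97 ± 2.95 at ZT6, its lowest, and did not pass (q = 0.0563). Its exons overlap an antisense gene, and the kit does not mark strand, so reads of the pair cannot be told apart. Exons of *Kcna6*, *Kcnab1*, *Kcnd3*, *Kcnh7*, *Kcnq1* and *Kcnq5* also overlap annotated genes on the other strand. Those of *Kcnab2* overlap one on the same strand.

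The Shaw genes, whose channels (Kv3) carry fast delayed rectifier current, had a different order. *Kcnc2* (chr10:112271121-112467024) had 58.7, 59.9 and 45.1 for ZT2, 79.2, 105 and 128 for ZT6, 92.8, 69.2 and 93.1 for ZT10, 60.7, 57.1 and 76.9 for ZT14, 47.96, 39.6 and 34.8 for ZT18 and 42.5, 58.7 and 55.4 for ZT22. Its mean was highest at ZT6, lower at ZT10 and ZT14 and lowest at ZT18, and of the 12 genes with the smallest q it alone passed as higher by day in the day and night comparison below (time q = 4.55e-04, exact JTK_CYCLE p = 9.86e-04). *Kcnc1* (chr7:46396497-46438704) had 22.2, 35.8 and 38.69 for ZT2, 64.5, 81.9 and 79.2 for ZT6, 46.7, 50.8 and 65.98 for ZT10, 49.2, 47.6 and 50.6 for ZT14, 28.7, 29.8 and 59.6 for ZT18 and 27, 41.3 and 36.6 for ZT22. It too was highest at ZT6, where all replicates but A were above the 15 replicates of the other timepoints, and passed the time test (q = 0.00857) but not JTK_CYCLE (exact p = 0.0549). *Kcnc4*, which inactivates fast, did not pass (q = 0.0904).

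**Figure D3:**
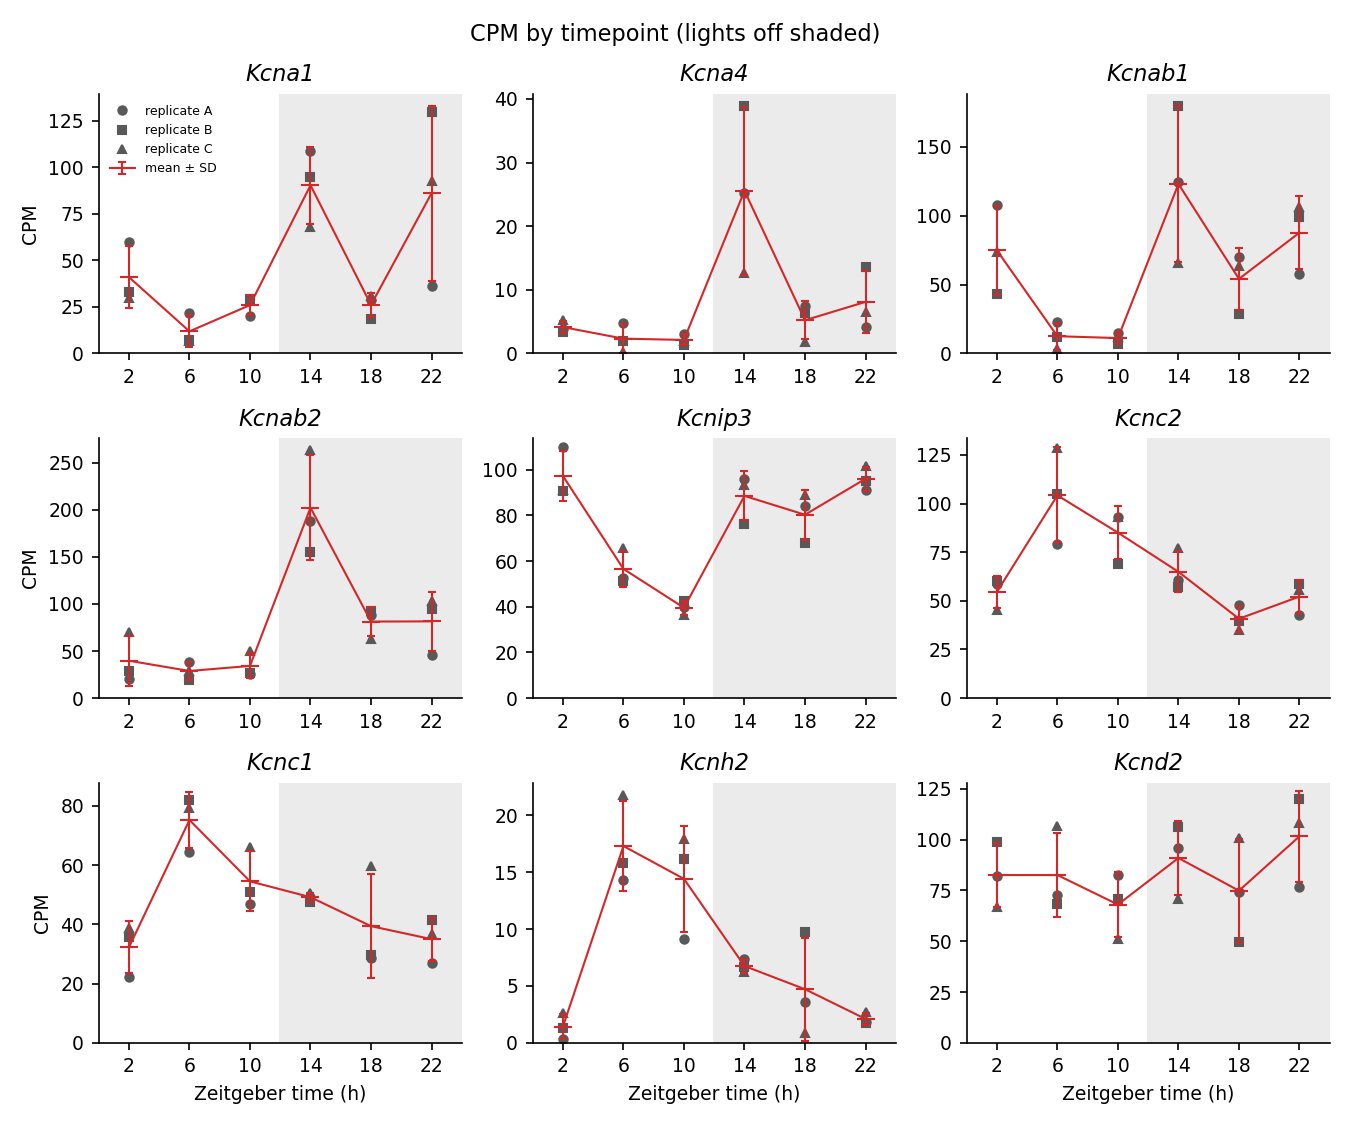
CPM of 9 channel genes against Zeitgeber time in hours, with replicates A, B and C as circles, squares and triangles, the mean and SD (n = 3) in red and lights off shaded. *Kcna1*, *Kcna4*, *Kcnab1* and *Kcnab2* are high at ZT14, *Kcnc2*, *Kcnc1* and *Kcnh2* at ZT6, and the replicates of *Kcnd2* overlap at all 6 timepoints, while those of *Kcnip3* at ZT6 and ZT10 lie below the other 12.

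Of the 3 Shal pore subunits 1 passed the time test, and of their 4 Kcnip partners 3 did. *Kcnd2* had 81.9, 98.8 and 67.1 for ZT2, 72.7, 68.5 and 107 for ZT6, 82.7, 70.6 and 51 for ZT10, 96.1, 106 and 70.6 for ZT14, 74.4, 49.5 and 101 for ZT18 and 76.6, 120.2 and 108 for ZT22. The replicates of all 6 timepoints overlapped, and no change with time was detected (q = 0.472), with timepoint means from 68.1 ± 16.01 to 102 ± 22.5 CPM (SD, n = 3). *Kcnd1* (Kv4.1) had 11.3, 10.5 and 14.2 for ZT2, 9.8, 2.89 and 3.597 for ZT6, 4.08, 4.25 and 4.77 for ZT10, 13.4, 9.17 and 10.9 for ZT14, 7.81, 3.73 and 6.84 for ZT18 and 6.92, 6.28 and 8.35 for ZT22. It was highest at ZT2 and ZT14 and passed narrowly (q = 0.0433), keeping its call in 6 of 18 fits that left out 1 replicate. *Kcnd3* did not pass (q = 0.0847).

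*Kcnip3* had 110.2, 90.8 and 91.1 for ZT2, 52.7, 51.3 and 65.7 for ZT6, 39.9, 42.5 and 36.3 for ZT10, 96.1, 76.3 and 93.4 for ZT14, 84.2, 68 and 88.9 for ZT18 and 91.3, 95.2 and 102 for ZT22. The 6 replicates of ZT6 and ZT10 lay below the other 12, the ZT10 replicates lowest, and the gene was both changing (q = 3.17e-05) and rhythmic (exact JTK_CYCLE p = 0.00328). *Kcnip4* had 65.2, 65.9 and 46.2 for ZT2, 33.7, 41.1 and 36.8 for ZT6, 39.4, 38.5 and 43.9 for ZT10, 57.6, 62.1 and 79.7 for ZT14, 54, 55.5 and 52.3 for ZT18 and 51.1, 75.3 and 63.8 for ZT22. These 6 replicates were again the lowest, and among the other 4 timepoints only ZT14 and ZT18 did not overlap (q = 0.00576). Exons of *Kcnip4* overlap annotated genes on the other strand. *Kcnip2* had 58.4, 54.8 and 55.7 for ZT2, 35.9, 21.1 and 47.1 for ZT6, 27.4, 42.2 and 36.1 for ZT10, 52.1, 43.9 and 44.9 for ZT14, 31.9, 39.1 and 47.1 for ZT18 and 52.9, 75.5 and 56.9 for ZT22. It passed at q = 0.0359 and kept the call in 9 of 18 fits that left out 1 replicate. *Kcnip1* did not pass (q = 0.595).

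KCNQ subunits form the M current, a slow current that muscarinic receptors shut. *Kcnq3* had 11.6, 3.7 and 3.31 for ZT2, 0.347, 0.189 and 0.0473 for ZT6, 0.534, 0.738 and 0.708 for ZT10, 6.78, 6.18 and 4.78 for ZT14, 1.73, 3.66 and 0.854 for ZT18 and 1.74, 6.13 and 7.63 for ZT22. All 6 replicates of ZT6 and ZT10, with 1 to 17 reads each, were below the other 12, which had 14 to 243 reads (q = 4.72e-04), and at so few reads the size of the fold is poorly fixed. *Kcnq5* had 18.1, 16.01 and 13.1 for ZT2, 6.77, 5.49 and 12.97 for ZT6, 5.1, 7.55 and 9.91 for ZT10, 22.8, 18 and 20.9 for ZT14, 6.01, 13.04 and 3.66 for ZT18 and 12.6, 31.3 and 29.1 for ZT22. All ZT14 replicates were above all ZT18 replicates, and ZT22 replicates B and C were the 2 highest of the 18 (q = 0.00818, and 0.121 without these 2 and ZT14 replicate C, with 1.02e-04 to 0.121 over all alternatives). *Kcnq1* did not pass (q = 0.836).

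An ERG and an ELK type gene were highest between ZT6 and ZT14. *Kcnh2*, the ERG channel Kv11.1, had 0.339, 1.33 and 2.58 for ZT2, 14.4, 15.8 and 21.8 for ZT6, 9.17, 16.1 and 17.9 for ZT10, 7.36, 6.68 and 6.21 for ZT14, 3.58, 9.7 and 0.854 for ZT18 and 1.85, 1.76 and 2.69 for ZT22. ZT6 and ZT10 were high and ZT2 and ZT22 low, and all ZT6 replicates were above every replicate of ZT14, ZT18, ZT22 and ZT2 (time q = 0.00127, exact JTK_CYCLE p = 0.00672). *Kcnh3*, an ELK channel of the forebrain, had 1.13, 1.33 and 2.00 for ZT2, 6.68, 3.93 and 7.34 for ZT6, 2.62, 11.02 and 11.5 for ZT10, 15, 9.96 and 11.1 for ZT14, 2.34, 3.501 and 5.25 for ZT18 and 0.688, 2.83 and 1.22 for ZT22. Its means were highest at ZT14, ZT10 and ZT6, although ZT10 replicate A was as low as ZT18 (time q = 0.00158, exact JTK_CYCLE p = 0.00473) and its exons overlap *Mcrs1* on the other strand. *Kcnh7* was highest at ZT14 (42.8 ± 19.4 CPM) and ZT22 (40.2 ± 10.1) and passed (q = 0.0232), while *Kcnh1*, *Kcnh4*, *Kcnh5*, *Kcnh6* and *Kcnh8* did not, with q from 0.0735 to 0.922.

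The smallest q of the family belonged to *Kcne1l* (chrX:142304752-142306294), an X-linked single-span subunit also called Kcne5. *Kcne1l* had 3.96, 2.45 and 1.62 for ZT2, 44.8, 23.8 and 15.5 for ZT6, 17.4, 35 and 21.4 for ZT10, 12.9, 13.2 and 8.11 for ZT14, 22.8, 18.99 and 19.96 for ZT18 and 2.75, 2.2 and 1.68 for ZT22. All 6 replicates of ZT2 and ZT22 were below the other 12, and the ZT14 replicates were below those of ZT18 (time q = 4.56e-06). Its JTK_CYCLE p was near the limit (exact p = 0.0420), and the cycling call held in 10 of 18 fits that left out 1 replicate. *Kcne4* also passed (q = 0.00870), from 5.06 ± 3.503 CPM at ZT2 to 0.0736 ± 0.0897 at ZT6, where 1 replicate had no read. Among the silent subunits *Kcnf1*, *Kcng3* and *Kcnv1* passed (q = 0.0354, 0.0397 and 0.0410), each in 6 to 8 of 18 fits that left out 1 replicate.

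A profile with its 2 highest timepoint means at ZT14 and ZT22, in a gene that changed with time, was met by 11 of the 48 genes (22.9%) against 2.15% of all genes tested. Among them were *Kcna1*, *Kcna4*, *Kcnab1*, *Kcnab2*, *Kcnf1*, *Kcnh7*, *Kcnip4*, *Kcnq5* and *Kcnv1*. The profile was named in the study of these samples, so the count is not independent evidence of it. Single libraries weighed on it, since the count was 7 without ZT14 replicate C, 6 without ZT22 replicate B and 7 without ZT22 replicate C. These 3 libraries had the highest summed level of the 6 telencephalic excitatory markers, at 212, 229.8 and 167 CPM. Over replicates the sum was 99.8 to 212 for ZT14 and 57.4 to 229.8 for ZT22, against 40.8 to 82.7 for ZT2, 16.3 to 21.04 for ZT6, 42.7 to 77.7 for ZT10 and 25.3 to 63.8 for ZT18, and 3 of its 6 genes (*Slc17a7*, *Neurod6* and *Tbr1*) met the same rank rule. With the 3 libraries left out together, a single ZT22 library was left and assumed to vary like the others, and most of the 11 no longer met the rule. The family's median log2 difference of ZT14 and ZT22 against ZT18 and ZT2 was then 0.20, against 0.58 with all libraries. How many of all genes kept the rule in this fit is not given here, so the loss cannot be called particular to the channel genes. Striatal markers were high in ZT14 replicates A and B (483 and 681 summed CPM over 5 genes, against 75.8 to 302 in the other 16). Without these 2, which leaves a single ZT14 library on the same assumption, fewer of the 11 met the rule and the same median difference was 0.42. For this fit, too, the share of all genes is not given here. No marker of either list had a mean of 0 at a timepoint. The general neuronal markers (8 of 9 listed, in the table) summed to 6989 to 7749 CPM at ZT2 and 3529 to 4964 at ZT6. Their sum was 4874 to 4892 CPM at ZT10 and 6089 to 8053 at ZT14. It was 4678 to 6274 CPM at ZT18 and 8219.8 to 9212 at ZT22. The sum at ZT2 lay within the range of ZT14, but single markers differed. Means of *Snap25* and *Stmn2* were higher at ZT2 (4207 and 1360 CPM) than at ZT14 (3429 and 726). Those of the others were higher at ZT14, such as *Nefl* (272 CPM against 49 at ZT2), *Eno2* (1183 against 734) and *Syp* (359 against 174). The part of these other neurons in the channel results was not tested beyond the leave-outs given here.

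**Figure D4:**
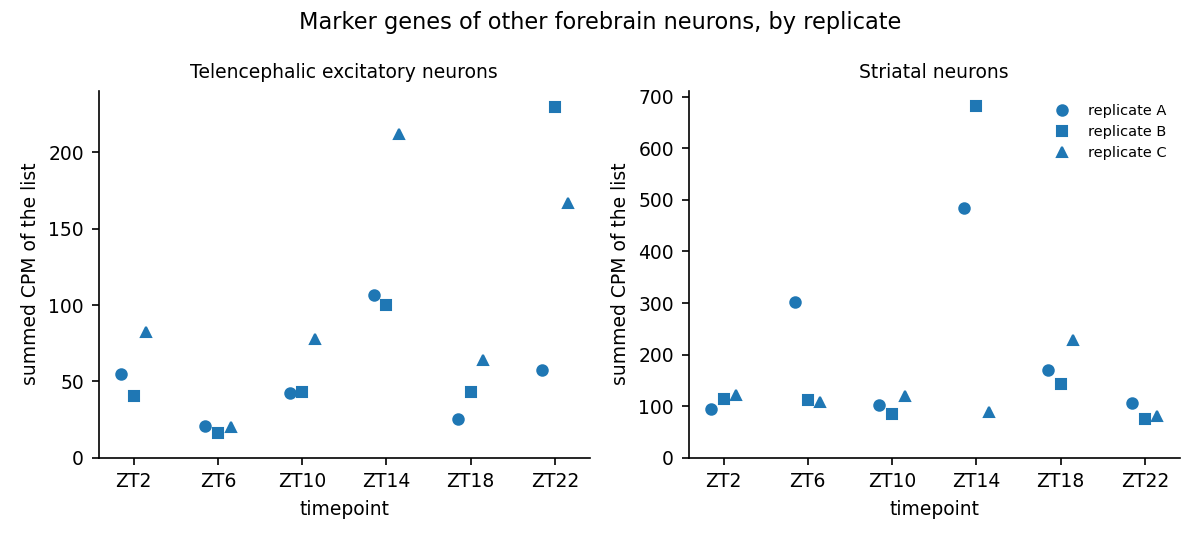
Summed CPM of 6 telencephalic excitatory markers (left) and 5 striatal markers (right) in each replicate by timepoint, with replicates A, B and C as circles, squares and triangles. The telencephalic sum is highest in ZT22 replicate B (229.8), ZT14 replicate C (212) and ZT22 replicate C (167), and the striatal sum in ZT14 replicates B (681) and A (483).

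Comparisons inside the library clusters avoid a batch that follows them. ZT14 against ZT18 was the one in which the family shifted most, for 42 of 48 genes were higher at ZT14, with a median log2 difference of 0.89 against 0.01 over all genes tested, where 50.6% were higher. No channel gene passed (edgeR, 0 of 48, against 0.57% of all genes). At an unadjusted p under 0.05, 14 were higher at ZT14 (29.2%, against 7.09% of all genes) and 1, *Kcne1l*, was higher at ZT18 (2.08%, against 6.45%). Without ZT14 replicates A and B, 7 were higher at ZT14 at this p (against 3.08% of all genes), and without ZT14 replicate C and ZT22 replicates B and C 9 were (against 5.29% of all genes). DESeq2 called 5 as higher at ZT14 (10.4%, against 2.76% of the 16310 genes it gave an adjusted p), *Kcna1*, *Kcna4*, *Kcnab2* and *Kcnq5* among them. For *Kcna1* the log2 difference was 1.79 ± 0.46 (SE, unadjusted p = 0.00118, q = 0.0842), and without ZT6 replicate A this gene passed in edgeR. All 3 ZT14 replicates were above all 3 ZT18 replicates in 19 of 48 genes (39.6%), against 11.6% of all genes, and all below in 1 (2.08%), against 10.2%. The median difference of the family was 0.82 without ZT14 replicates A and B (39 of 48 higher) and 0.65 without ZT14 replicate C and ZT22 replicates B and C (40 of 47 fitted genes higher). ZT18 replicate C had the lowest library total (15412981 counts). It held 3 reads of *Kcnh1*, against 456 and 654 in ZT18 replicates A and B, and 1 of *Kcns2*, against 200 and 110. Other channel genes were highest in it, such as *Kcna2* (25.9 CPM, against 8.32 and 2.57) and *Kcnc4* (37.5 CPM, against 19.9 and 11.7). Without it edgeR again called 0 genes, but its part in the median difference was not tested.

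ZT22 against ZT2 showed a smaller shift, with 36 of 48 genes higher at ZT22 and a median log2 difference of 0.22, against 0.01 over all genes. It was -0.09, with 20 of 47 fitted genes higher, once ZT14 replicate C and ZT22 replicates B and C were left out. No gene passed in edgeR (0 of 48, against 0.0317% of all genes) or DESeq2 (0), and 2, *Kcna1* and *Kcnab2*, were higher at ZT22 at an unadjusted p under 0.05 (4.17%, against 2.0% of all genes). All ZT22 replicates were above all ZT2 replicates in 5 genes (10.4%, against 5.98%), and only 1 gene was separated in this way in both comparisons (2.08%, against 1.09%). With both comparisons joined (the mean of ZT14 and ZT22 against the mean of ZT18 and ZT2), edgeR called 0 of 48 (0.148% of all genes), and 12 had an unadjusted p under 0.05, all higher at ZT14 and ZT22 (25%, against 5.94%). This number was 7 without ZT14 replicates A and B (against 3.16% of all genes) and 2 without ZT14 replicate C and ZT22 replicates B and C (against 2.47%), and the median log2 difference of the family was 0.58 with all libraries, 0.42 without the former and 0.20 without the latter. DESeq2 called 4 (8.33%, against 1.74% of the 15230 genes it gave an adjusted p), *Kcna1*, *Kcna4* and *Kcnab2* among them. The smallest edgeR q was that of *Kcna1* (log2 difference 1.43 ± 0.32, SE, q = 0.0697), followed by *Kcnab2* (1.17 ± 0.29, SE, q = 0.0979). Both passed without ZT22 replicate A, and *Kcna1* without ZT6 replicate A.

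ZT6 against ZT10 left the family in place, with 23 of 48 genes higher at ZT6 and a median log2 difference of -0.02, against -0.03 over all genes. No gene passed in edgeR (0 of 48, against 0.0475% of all genes) or DESeq2 (0), and 6 had an unadjusted p under 0.05 (12.5%, against 10.8% of all genes). *Kcnip3* was among them, with all ZT6 replicates above all ZT10 replicates. The level of the ZT6 and ZT10 pair against the 4 other timepoints, which crosses clusters, was also read replicate by replicate. In 5 genes (10.4%, *Kcna6*, *Kcnab1*, *Kcnip3*, *Kcnip4* and *Kcnq3*) these 6 replicates all lay below the other 12, against 3.74% of all genes, and in none did they all lie above (4.78% of all genes). The counts of these 6 replicates are also the ones that differ between the deposited raw and normalized data, as described under processing.

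**Figure D5:**
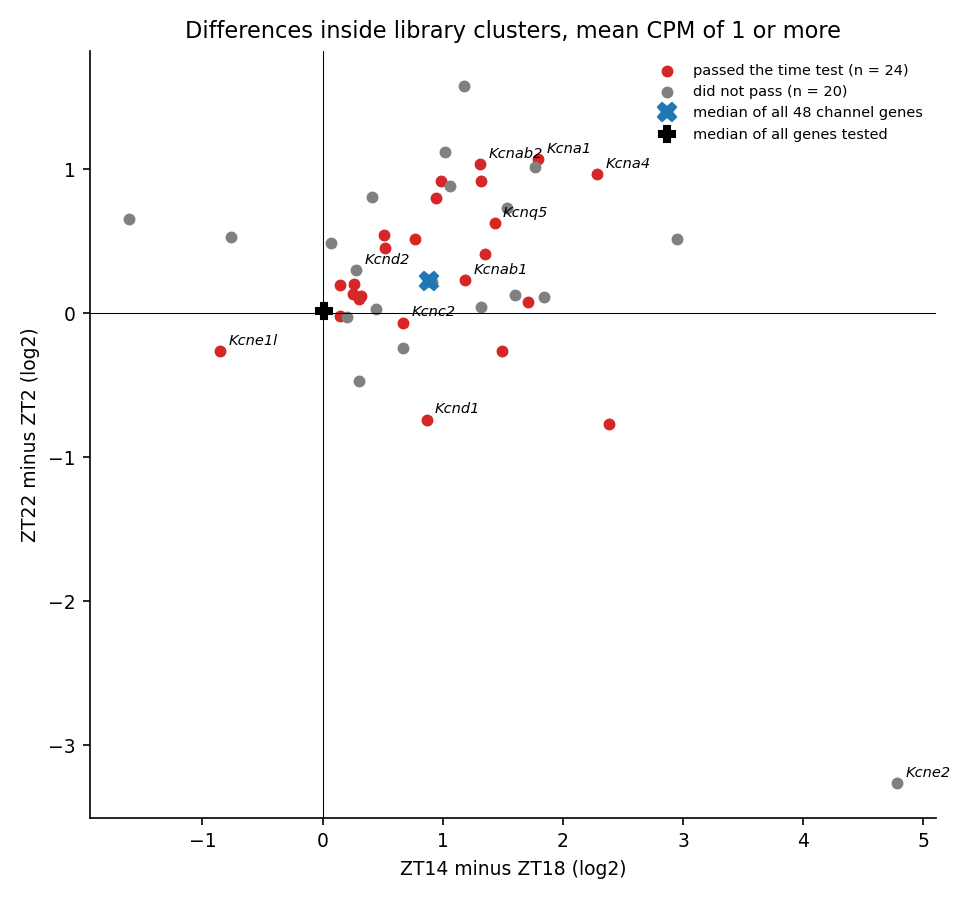
Log2 difference ZT14 minus ZT18 (x axis) and ZT22 minus ZT2 (y axis) for the 44 channel genes with a mean of at least 1 CPM, red where the time test was passed (24) and grey where not (20), with the median of all 48 channel genes (blue cross) and of all genes tested (black plus). Most points lie right of 0, and the family's median is at 0.89 and 0.22, while that of all genes is at 0.01 and 0.01.

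Day (ZT2, ZT6 and ZT10) against night (ZT14, ZT18 and ZT22), the contrast that the firing of SCN neurons follows, was passed by 15 of 48 genes. Of these, 13 were higher at night (27.1%, against 14.3% of all genes) and 2 by day (4.17%, against 9.56%). The median log2 difference, day minus night, was -0.53 for the family and -0.13 for all genes. Among the genes higher at night were *Kcna1*, *Kcna2*, *Kcna4*, *Kcna6*, *Kcnab1*, *Kcnab2*, *Kcnh7*, *Kcnip3*, *Kcnip4*, *Kcnq3* and *Kcnv1*, so that 4 of 6 Shaker genes and 2 of 3 beta subunits were among them. The difference of *Kcnab1* was -1.94 ± 0.32 (SE, q = 3.29e-04) and that of *Kcnab2* -1.70 ± 0.24 (SE, q = 9.04e-05). That of *Kcnip3* was -0.55 ± 0.09 (SE, q = 4.77e-04). *Kcnc2* was higher by day, by 0.60 ± 0.12 (SE, q = 0.00196), while *Kcnc1* did not pass at 0.32 ± 0.16 (SE, q = 0.152). The other gene higher by day was *Kcne2*, which had 0 reads in 4 replicates and 171 and 220 reads in ZT2 replicates A and B, and its call held in 5 of 18 fits that left out 1 replicate. The contrast crosses the library clusters. Inside one of them, ZT2 against ZT22 is the only pair of a day and a night timepoint. It gave 0 of 48 calls in edgeR and DESeq2. The log2 differences ZT2 minus ZT22 of *Kcnip3* (0.018 ± 0.16, SE) and *Kcnq3* (0.26 ± 0.70, SE) were smaller than their SEs, so they show no direction. Without ZT14 replicate C and ZT22 replicates B and C, fewer of the 15 calls were left, in a fit with a single ZT22 library. The share of all genes called in that fit is not given here. Summed markers of other cell types and of SCN neurons also differed between timepoints. The summed level of 6 astrocyte markers was 1640.3 to 2304 CPM in the 6 replicates of ZT6 and ZT10, below the 2703 to 5235 of the other 12. That of 6 microglia markers was 87.9 to 178 CPM at ZT6 and ZT10 and 152 to 241 in the other 12. That of 6 oligodendrocyte markers was 4716 to 6071 CPM at ZT14 and ZT18, above the 1267 to 4409 of the other 12, and that of the 10 SCN neuron markers 4639 to 6979 CPM at ZT14 and ZT18, below the 7524 to 14936 of the other 12. Their part in the channel results was not tested.

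Other proteins of Kv channel complexes were read from a list of 20 genes (auxiliary subunits, scaffolds, calmodulins and regulators). Of these 20, 17 changed with time (44.0% of all genes), 8 were cycling (29.9% of all genes) and 3 met the ZT14 and ZT22 rank rule (2.15% of all genes). In the day and night comparison 10 were higher at night (14.3% of all genes) and 1, *Vapa*, by day (9.56% of all genes). The smallest q was that of *Calm3*, 1 of 3 calmodulin genes, whose protein is a KCNQ subunit partner, with means from 229.9 ± 30.6 CPM at ZT2 to 812 ± 44.9 at ZT6 (SD, n = 3, q = 1.62e-07). The scaffold gene *Dlg1* and *Adam22*, a partner of the secreted Kv1 regulator LGI1, ran the other way. *Dlg1* had 143 ± 26.9 CPM at ZT2 and 42.2 ± 8.56 at ZT6 (q = 5.66e-06), and *Adam22* 678 ± 72.6 at ZT2 and 119.7 ± 41.3 at ZT10 (q = 8.79e-06).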

How the data were processed

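Laser-captured SCN was sequenced as polyA RNA after SMARTer amplification, which does not mark strand, in 18 replicates. The authors used GSNAP for alignment to mm10 and HTSeq 0.5.4p1 for counting, and the deposited table holds these raw counts with lanes combined. A second deposited table holds normalized signal, the counts divided by a size factor per column. Whole reads were recovered from it in 100% of values (tolerance 0.1 reads) as an alternative, in which 23 of 48 genes passed the time test. The ZT6 and ZT10 columns of the tables differ in most genes, with 8.76 to 12.2% identical reads, against 93.3 to 94.9% in the columns of the other timepoints. No sample column was left unused (0). Only genes read (at least 1 count) in over 6 replicates were fitted, with edgeR 4.0.16 in R 4.3.3 (TMM, quasi-likelihood tests, Benjamini–Hochberg adjustment over all 18941 genes, called q, threshold 0.05). A standard error is the log2 difference divided by the square root of F. JTK_CYCLE (24 hr, 6 lags, exact null, Bonferroni factor of 6, p under 0.05) was run in Python 3.11.15. DESeq2 1.42.0 and cosinor regression in limma 3.58.1 were alternatives. The code was tested on simulated data. P-values measure spread between pools of mice. Members, lists and alternatives were chosen with earlier results of these data known. Values in every replicate are given for the 12 genes with the smallest time q, up to 8 per call inside clusters, up to 8 meeting the rank rule, the 5 highest per kb, and *Kcnab1*, *Kcnc1*, *Kcnc2*, *Kcnd1*, *Kcnd2* and *Kcna4*; other genes named with values were chosen after these were seen. Some genes are not reported here by name or in the plots with gene labels, and remain in the counts. Another 6 marker lists (neighbouring hypothalamic neurons, oligodendrocytes, astrocytes, microglia, endothelial cells and SCN neurons) were also summed, and 2, 6, 6, 6, 4 and 9 of their genes changed with time.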

Additional observations from a re-analysis of the deposited data

Results flagged for a closer look

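*Kcnb2*, the second Shab gene, is not among the raw counts and was found only in the reads recovered from the normalized table, where every replicate had some, from 4 to 331 reads. Its recovered level was lowest at ZT10 (2.51 ± 1.73 CPM), followed by ZT6 (3.66 ± 4.23), ZT18 (4.72 ± 3.75), ZT14 (5.71 ± 1.57), ZT2 (6.08 ± 0.817) and ZT22 (6.75 ± 4.62; SD, n = 3 each), and edgeR found no change with time on those reads (q = 0.788).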

How the results depend on the processing

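Of the counts given above, that of genes changing with time ran from 17 to 29 when 1 replicate was left out, cycling from 6 to 15, the ZT14 and ZT22 rank rule from 6 to 13, day against night from 13 to 20, ZT14 against ZT18 from 0 to 1, ZT14 and ZT22 against ZT18 and ZT2 from 0 to 2, ZT22 against ZT2 and ZT6 against ZT10 stayed at 0, and the partner list ran from 15 to 19. Leaving out ZT14 A and B, as chosen after seeing the data, gave 16 genes changing with time and 6 by the rank rule, and leaving out ZT14 C, ZT22 B and ZT22 C gave 16, 5 cycling, 1 by the rank rule and 8 by day against night; fewer libraries were then fitted. Cosinor regression in place of JTK_CYCLE gave 14 cycling genes. The rank rule replaced by separated replicates in both pairs gave 1. Inside clusters, the joined comparison gave 4 calls with DESeq2 and 2 without a filter. With at least 10 reads in every replicate (26 of 48 genes left) it gave 1. ZT14 against ZT18 gave 5, 1 and 2 with the same 3 settings, and the cause was not tested. Set against the other 4 timepoints, which crosses clusters, ZT14 and ZT22 gave 19 calls. The share of all genes called in that setting is not given here, so the 19 cannot be called particular to the channel genes. Apart from the DESeq2 shares given above, the share of all genes is also not given for the other alternatives of this paragraph. ZT2 against ZT22 alone gave 0 calls, and the differences of *Kcnip3* (0.018 ± 0.16, SE) and *Kcnq3* (0.26 ± 0.70, SE) were smaller than their SEs. With DESeq2's size factors or upper-quartile factors in edgeR, 24 genes changed with time, and no count moved by over 1.5 times. Of 16 genes given in every replicate that changed with time, 12 kept the call in each alternative that could be fitted, and *Kcna4*, *Kcnd1*, *Kcnip2* and *Kcnq5* lost it in at least 1. Same-letter replicates did not deviate together (45 pairs, r from -0.13 to 0.07), and with the letter as a replicate block 24 genes changed with time. Genes with few reads, such as *Kcng3* (131 in all), are limited by depth.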
